A study of Mus musculus with 6 samples.

Results

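The Cyp2c genes encode cytochrome P450 enzymes of the endoplasmic reticulum, and 10 of them are described here in the livers of wild type (WT) mice and of Hmgb2 knockout mice (HMGB2-KO): Cyp2c37, Cyp2c38, Cyp2c39, Cyp2c40, Cyp2c50, Cyp2c54, Cyp2c65, Cyp2c67, Cyp2c68 and Cyp2c69. They were found by gene symbol among the 19505 genes named on the array, with 1 row each. The list was chosen from earlier results of the same 6 livers, with the HMGB2-KO against WT difference known, so that difference is given for these genes as a description and without a test. The array names 14 Cyp2c genes in all, and the 4 left out of the list are given below beside the 10.

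Both groups were untreated male C57BL/6 mice aged 8 weeks, as far as the labels say, with 3 livers of the WT genotype and 3 of the HMGB2-KO genotype and 1 Clariom S array per liver. How the Hmgb2 allele was made, and whether the deletion reaches every cell, is not stated in the labels. Whole liver RNA was measured, so fewer cells of a type and less RNA per cell cannot be told apart. Each value is a log2 difference from an unknown baseline of its own row, with the median of every array set to 0. Values of 1 gene can thus be compared between livers, but no gene's level can be read, nor compared with another gene's, and the liver label cannot be checked against the presence of hepatocyte markers.

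Cytochrome P450 enzymes carry haem and take electrons from the reductase Por. The Cyp2c family in liver oxidises drugs, steroids and fatty acids, and turns arachidonic acid into epoxides and hydroxylated products. In the mouse the family has expanded into a cluster of close copies on chromosome 19. Its genes are known to respond to liver factors such as HNF4A, to the xenobiotic receptors CAR and PXR, and, for several members, to the sex-dependent pattern of growth hormone.

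Promoter windows are shown first for Cyp2c40, Cyp2c69, Cyp2c68 and Cyp2c67, because these 4 neighbours differed most between the genotypes. Each window runs from 250 bases before to 50 bases from the RefSeq gene start, in build GRCm38.p6, and is written on the gene's own strand. Capitals mark the letters CAAAGTCCA, a motif of the liver factor HNF4A, and ATTGAT, a motif of the liver factor HNF6, both searched on both strands. No match of one motif overlapped a match of another in any Cyp2c window.
Cyp2c40, chr19:39812765-39813064, minus strand: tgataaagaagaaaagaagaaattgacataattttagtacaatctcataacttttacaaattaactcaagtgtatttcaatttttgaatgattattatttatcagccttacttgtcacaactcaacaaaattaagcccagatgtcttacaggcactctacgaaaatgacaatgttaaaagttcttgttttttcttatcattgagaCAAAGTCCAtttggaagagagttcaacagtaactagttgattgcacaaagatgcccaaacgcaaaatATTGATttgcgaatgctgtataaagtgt
Cyp2c69, chr19:39886720-39887019, minus strand: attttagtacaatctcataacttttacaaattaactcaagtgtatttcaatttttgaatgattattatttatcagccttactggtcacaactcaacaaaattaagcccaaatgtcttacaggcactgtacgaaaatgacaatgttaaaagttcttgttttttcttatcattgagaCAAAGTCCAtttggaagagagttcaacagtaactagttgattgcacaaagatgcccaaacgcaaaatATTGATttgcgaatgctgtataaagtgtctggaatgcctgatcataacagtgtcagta
Cyp2c68, chr19:39741052-39741351, minus strand: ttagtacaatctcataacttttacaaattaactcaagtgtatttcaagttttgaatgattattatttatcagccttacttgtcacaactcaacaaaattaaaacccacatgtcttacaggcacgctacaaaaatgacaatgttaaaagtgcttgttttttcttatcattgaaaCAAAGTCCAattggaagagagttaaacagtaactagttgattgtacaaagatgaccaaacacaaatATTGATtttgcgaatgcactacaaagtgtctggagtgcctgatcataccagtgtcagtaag
Cyp2c67, chr19:39648993-39649292, minus strand: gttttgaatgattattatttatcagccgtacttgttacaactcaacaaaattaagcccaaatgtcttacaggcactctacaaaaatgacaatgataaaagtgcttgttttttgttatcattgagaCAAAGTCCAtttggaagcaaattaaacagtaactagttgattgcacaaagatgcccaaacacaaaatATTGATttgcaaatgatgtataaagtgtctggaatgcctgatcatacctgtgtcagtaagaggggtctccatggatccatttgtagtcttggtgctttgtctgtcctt

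These 4 windows were near copies of one another. Over 220 to 296 aligned bases, the 6 pairs of them were 91.6% to 98.9% identical, and Cyp2c40 and Cyp2c69 were the closest pair. Against the windows of the 5 other members with a RefSeq entry, identity was 61.1% to 73.2% over 20 pairs. Each of the 4 windows held the HNF4A letters once and the HNF6 letters once. The first bases of both matches lay 67 bases apart in Cyp2c40, Cyp2c69 and Cyp2c67 and 66 bases apart in Cyp2c68. The letters TATAAA followed 85 bases after the start of the HNF4A match in Cyp2c40, Cyp2c69 and Cyp2c67 and were not found in the Cyp2c68 window. Counted from the annotated gene start as base 0, the HNF4A match began at -45 in Cyp2c40, -75 in Cyp2c69, -77 in Cyp2c68 and -125 in Cyp2c67, so the same stretch sits at different distances from the starts that RefSeq gives.

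**Figure D1:**
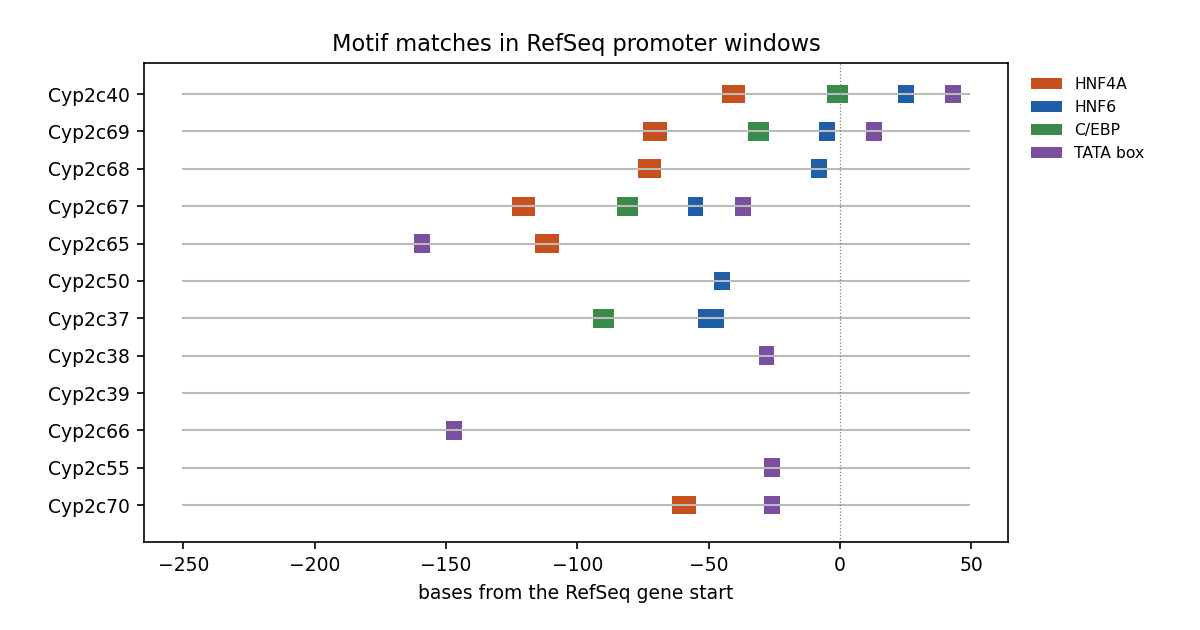
Matches to 4 motifs in the RefSeq promoter windows of 12 Cyp2c genes, by distance in bases from the annotated gene start (dotted line at 0). Each grey line is a window of 300 bases and each coloured block a match. Cyp2c40, Cyp2c69, Cyp2c68 and Cyp2c67 hold an HNF4A match followed by an HNF6 match 66 or 67 bases on, and Cyp2c65 and Cyp2c70 hold an HNF4A match and no HNF6 match.

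The stretch that best matches the HNF4A letters is shown for all 9 members with a RefSeq window and for Cyp2c70. It differs from the motif by 0 letters in Cyp2c40 and by up to 2 in Cyp2c38. The stretches were found gene by gene and need not be the same site in each. Unlike the exact letters, this best match was sought on the gene's own strand only, leaving out the ends of the window. Cyp2c37 has 2 equally good stretches. Capitals mark the 9 matched letters.
Cyp2c40: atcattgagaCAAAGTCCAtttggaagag
Cyp2c69: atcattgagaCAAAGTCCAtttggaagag
Cyp2c68: atcattgaaaCAAAGTCCAattggaagag
Cyp2c67: atcattgagaCAAAGTCCAtttggaagca
Cyp2c65: gatgttggaaCAAAGTCCActgggaggag
Cyp2c37: agtattgtagCAAAGTCTAgttgaatgag
Cyp2c37 second match: aagaatattcCAAAGTGCAatcaattgat
Cyp2c50: aagaatgttcCAAAGTGCAatggattgat
Cyp2c39: atcaaagggaCAAAGTCTActtgaaagag
Cyp2c38: tatcaaggaaCAAAGTTTAtttgaatgag
Cyp2c70: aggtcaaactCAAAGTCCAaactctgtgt

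The exact HNF4A letters stood in 5 of the 9 member windows, the 4 above and Cyp2c65, against 0.475% of the 32851 RefSeq promoter windows of this length. Counting from 1 at the motif's first letter, the best match of Cyp2c39 carried C8T and that of Cyp2c38 C7T and C8T. Cyp2c37 had a match with C8T and another with C7G, and the latter has the same 9 letters as the best match of Cyp2c50. The exact letters also stood in the window of Cyp2c70, whose genotype difference was -0.05 (SE 0.20). Since the 4 windows are near copies, they do not count as 4 separate observations. The HNF6 letters stood in 6 of 9 member windows, the 4 above, Cyp2c37 and Cyp2c50, against 7.54% of all windows. The motif AGTTCA, a half-site of CAR and PXR, stood in 3 of 9 against 14%, AGGTCA, a half-site shared by many nuclear receptors, in 1 of 9 against 16.3%, and the C/EBP motif TTGCNNAA in 4 of 9 against 10.8%. TATAAA stood in 5 of 9 against 13.6%, and the FOXA motif TGTTTAC in 2 of 9 against 3.65%. The STAT5 and BCL6 motif TTCNNNGAA, in 8.30% of all windows, and the HNF1 motif GTTAATNAT, in 0.801%, were found in 0 of 9. A match is a run of letters, not a bound site, and binding was not measured.

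All 10 members had a lower mean in HMGB2-KO than in WT, with a median log2 fold change of -0.56, or 1.47-fold lower, against a median of -0.00 over all genes. A lower mean was found for 50.5% of all genes. The 3 HMGB2-KO values lay below all 3 WT values in 7 of the 10, namely Cyp2c40, Cyp2c50, Cyp2c54, Cyp2c65, Cyp2c67, Cyp2c68 and Cyp2c69. Such a separation was seen for 5.35% of all genes, and since the list was chosen with this difference known, nothing is read from that contrast. In limma, 0% of all genes passed the Benjamini-Hochberg adjusted threshold of 0.05, members included, while 717 genes had an unadjusted p under 0.05. The test without moderation of the variance also called 0 genes, and 837 before adjustment. Both counts before adjustment are below a share of 0.05 of all genes, which is reached on average where no gene differs.

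**Figure D2:**
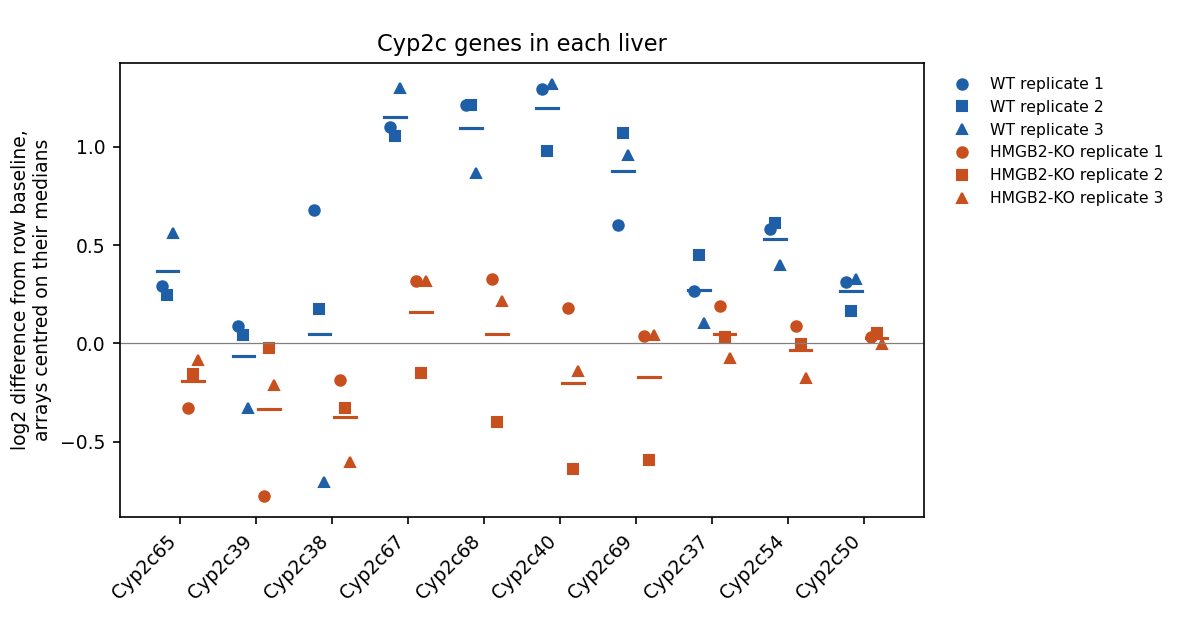
Value of each of the 10 Cyp2c genes in each liver, as the log2 difference from the row baseline after arrays were centred on their medians. Genes stand in chromosomal order, symbols give the replicate, and short lines are the mean of 3 livers. Heights can be compared within a gene, not between genes. In Cyp2c67, Cyp2c68, Cyp2c40 and Cyp2c69 the WT livers lie between 0.60 and 1.32 and the HMGB2-KO livers between -0.64 and 0.33.

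The gene with the largest difference was Cyp2c40, an arachidonic acid hydroxylase of liver and gut that is known to be higher in female than in male mouse liver. In the order of the replicate numbers, the WT livers were at 1.29, 0.98 and 1.32, and the HMGB2-KO livers at 0.18, -0.64 and -0.14. Every WT liver lay above every HMGB2-KO liver, with a gap of 0.80 between the lowest WT and the highest HMGB2-KO value. The log2 fold change was -1.40 (SE 0.22, 95% confidence interval -1.91 to -0.89, n = 3 livers each), or 2.64-fold lower. It ranked 10 from the lowest among the 19505 genes. The interval and the rank take no account of the choice of this gene on the same contrast, and neither is a test of it.

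In its close relatives Cyp2c67, Cyp2c68 and Cyp2c69 every WT liver also lay above every HMGB2-KO liver. The order of the WT livers varied between the genes. Cyp2c67 was at 1.10, 1.06 and 1.30 in WT and at 0.32, -0.15 and 0.32 in HMGB2-KO. Its log2 fold change was -0.99 (SE 0.17), or 1.99-fold lower. Cyp2c68 was at 1.21, 1.21 and 0.87 in WT and at 0.33, -0.40 and 0.22 in HMGB2-KO, a change of -1.05 in log2 (SE 0.21), or 2.07-fold lower. In none of these genes did the groups overlap, and the gaps were 0.74 for Cyp2c67 and 0.54 for Cyp2c68. Cyp2c69, also known as female-biased in liver, was at 0.60, 1.07 and 0.96 in WT and at 0.04, -0.60 and 0.04 in HMGB2-KO, which differ by -1.05 (SE 0.21) in the mean, with a gap of 0.56.

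HMGB2-KO replicate 2 was the lowest liver of all 6 in each of these 4 genes, and in 0 of the other 6 members. Averaged over the 4 genes, the WT livers stood at 1.05, 1.08 and 1.11 and the HMGB2-KO livers at 0.22, -0.45 and 0.11. The HMGB2-KO livers spread more widely than the WT livers in all 4 genes, as ranges of 3 livers. These were 0.82 against 0.34 in Cyp2c40, 0.73 against 0.34 in Cyp2c68, 0.64 against 0.47 in Cyp2c69 and 0.47 against 0.24 in Cyp2c67. Without HMGB2-KO replicate 2 the log2 fold change of Cyp2c40 was -1.18. The transcripts of these 4 genes are so alike that 1 RNA may be read by the probes of several rows. The array's probe sequences were not used here, so the 4 rows are not 4 separate measurements, and single values in them are uncertain.

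Cyp2c54, Cyp2c50 and Cyp2c37 lie next to that stretch and encode enzymes that oxidise arachidonic or linoleic acid. Cyp2c54 was at 0.58, 0.61 and 0.40 in WT and at 0.09, -0.00 and -0.18 in HMGB2-KO, with no overlap. Its log2 fold change was -0.56 (SE 0.13), or 1.48-fold lower. Cyp2c50 was at 0.31, 0.17 and 0.33 in WT and at 0.03, 0.05 and -0.00 in HMGB2-KO, a difference of -0.24 (SE 0.12). Its groups were separate by only 0.11, and its spread within genotypes was small, with an SD of 0.07 that lies at percentile 2.60 of all genes. The SE of 0.12 is larger than this spread alone would give, because limma moves a small variance up towards that of all genes. In Cyp2c37 the groups overlapped, with 0.27, 0.45 and 0.10 in WT and 0.19, 0.03 and -0.08 in HMGB2-KO, and its log2 fold change was -0.23 (SE 0.14), or -0.14 without WT replicate 2. The promoter windows of Cyp2c37 and Cyp2c50 were 89.5% identical.

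Cyp2c65, which is known mainly from the epithelium of the stomach and intestine, was at 0.29, 0.25 and 0.56 in WT and at -0.33, -0.15 and -0.09 in HMGB2-KO. The groups did not overlap, and the log2 fold change was -0.56 (SE 0.14), or 1.47-fold lower. Here HMGB2-KO replicate 1, not replicate 2, was the lowest liver. Of 19 markers of gut epithelium and pancreas, 14 were higher in HMGB2-KO. On the higher side 2 were separate (Muc2 among them), against 4.32% of all genes. On the lower side 2 were (Amy2b among them), against 5.35%. The median of the list was between -0.12 and -0.03 in the WT livers and between -0.12 and 0.08 in the HMGB2-KO livers. Cyp2c66, whose promoter window is 94.5% identical to that of Cyp2c65, was at 0.15, 0.42 and 0.07 in WT and at 0.10, 0.02 and -0.14 in HMGB2-KO, so that its groups overlapped.

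Cyp2c38 and Cyp2c39, both arachidonic acid epoxygenases, varied within the genotypes more than they differed between them. Cyp2c38 was at 0.68, 0.17 and -0.71 in WT, a range of 1.39, and at -0.19, -0.33 and -0.61 in HMGB2-KO. WT replicate 3 was the lowest of all 6 livers, and the within-genotype SD of 0.52 lay at percentile 94.7 of all genes. The log2 fold change of -0.42 (SE 0.33) depended on single livers, at -0.11 without WT replicate 1 and -0.80 without WT replicate 3. Cyp2c39, which also hydroxylates retinoic acid, was at 0.09, 0.04 and -0.33 in WT and at -0.78, -0.02 and -0.21 in HMGB2-KO. Its log2 fold change of -0.27 (SE 0.22) was -0.05 when HMGB2-KO replicate 1 was left out and -0.43 when replicate 2 of that genotype was.

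In the order of the genes on chromosome 19, Cyp2c67, Cyp2c68, Cyp2c40 and Cyp2c69 are consecutive, and they held the 4 largest differences, from -1.40 to -0.99. The 6 other members, on both sides of them, ranged from -0.56 to -0.23. On the lower side 3 of 6 were separate, where 5.35% of all genes were. The genes at the ends of the cluster are Cyp2c55 and Cyp2c70. Cyp2c55, known mainly from the colon, was at -0.60, -0.84 and -1.27 in WT and at -0.33, -0.42 and -0.78 in HMGB2-KO, which is higher by 0.39 (SE 0.21) with overlap. Cyp2c70, which makes muricholic bile acids, was at 0.06, 0.34 and 0.48 in WT and at -0.12, 0.35 and 0.50 in HMGB2-KO, or -0.05 (SE 0.20). Cyp2c66 was at -0.22 (SE 0.14, and -0.12 when WT replicate 2 was dropped), and the epoxygenase Cyp2c23, which lies apart from the cluster, at 0.04 (SE 0.18), which was -0.07 without centring. The median log2 fold change of these 4 was -0.00 and none was separate between the genotypes. The adjusted p in limma was 0.994 for Cyp2c55 and Cyp2c66 and 0.999 for Cyp2c70 and Cyp2c23. By liver, however, the median of the 4 values was between 0.06 and 0.19 in WT and between -0.13 and 0.03 in HMGB2-KO. These medians by liver thus did not overlap, and lay lower in HMGB2-KO. Whether the 10 differ from these 4 was not tested, since the 10 were chosen on the same contrast. Cyp2c29, between Cyp2c66 and Cyp2c39, was not analysed here.

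**Figure D3:**
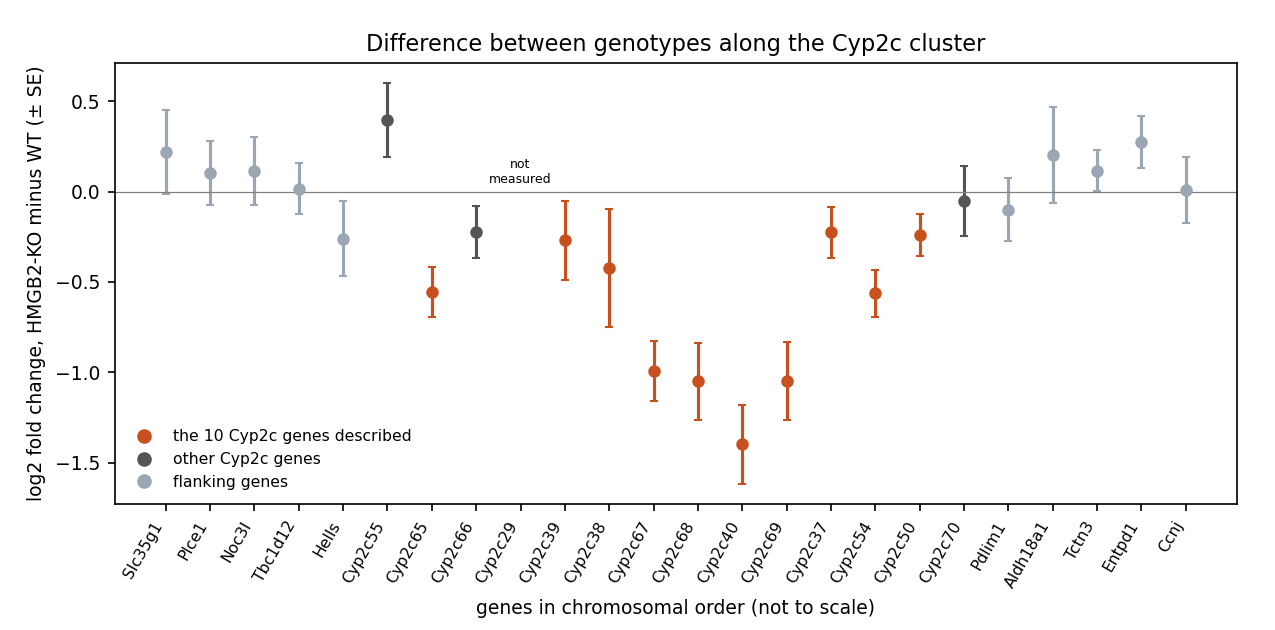
Log2 fold change, HMGB2-KO minus WT, with its standard error (3 livers per genotype), for the Cyp2c cluster and 5 measured genes on each side, in chromosomal order and not to scale. The consecutive genes Cyp2c67, Cyp2c68, Cyp2c40 and Cyp2c69 lie lowest, between -1.40 and -0.99, and the 10 flanking genes lie between -0.26 and 0.27.

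Outside the cluster, the 5 measured neighbours on each side ran from Slc35g1 to the chromatin remodeller Hells and from Pdlim1 to Ccnj. Their log2 fold changes ranged from -0.26 to 0.27, with a median of 0.11. In either direction 0 of 10 were separate between the genotypes. Of all genes, 5.35% were separate on the lower side and 4.32% on the higher, so little can be read from 10 genes.

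The members' log2 fold changes were computed again under 10 alternatives that could change them, and all 100 values were below 0. In the 7 members without overlap, leaving out livers or weighting arrays could change the size but not the sign. The members were also chosen on this difference, so nothing is read from the count of values below 0. Without centring of the arrays, the median log2 fold change of all genes was -0.12, and changes in the uncentred values are to be read against that shift. For Cyp2c40 the log2 fold change lay between -1.59 and -1.18, for Cyp2c67 between -1.11 and -0.84, for Cyp2c68 between -1.25 and -0.83 and for Cyp2c69 between -1.19 and -0.84. Compared liver by liver, by the number in the title, 8 of the 10 genes were lower in HMGB2-KO in all 3 differences, as were 13.7% of all genes, and nothing is read from this count since the members were chosen on the same contrast. The exceptions were Cyp2c38 and Cyp2c39 in the livers numbered 3 (0.10 and 0.12). In the 4 livers of animals 38 to 41 alone, 10 of 10 members were separate, as were 3516 of all genes on the lower side.

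**Figure D4:**
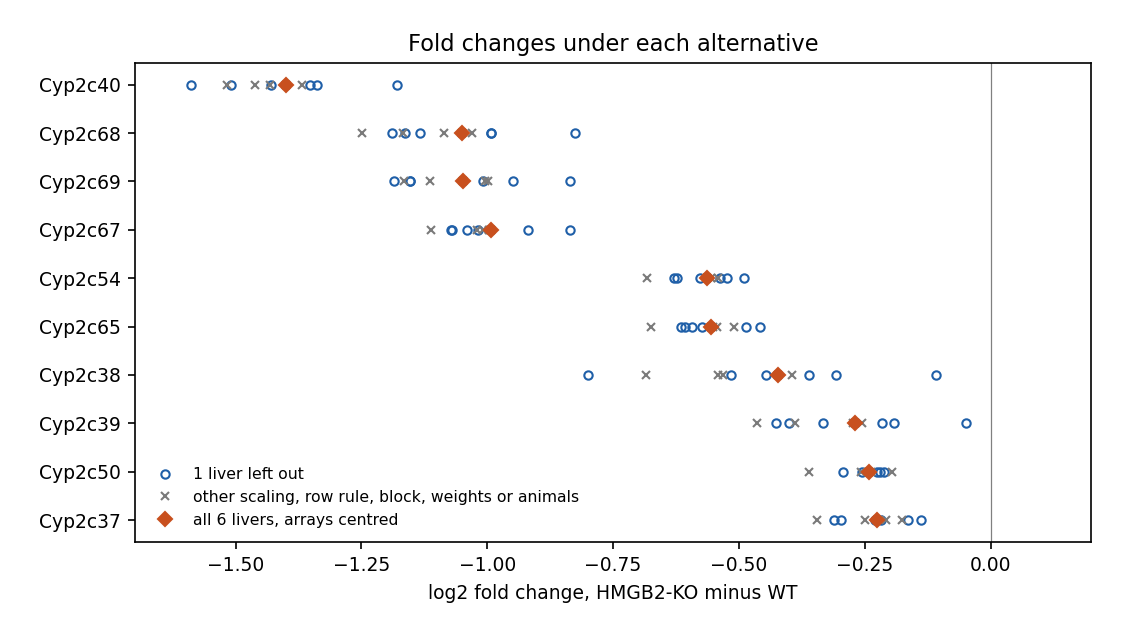
Log2 fold change, HMGB2-KO minus WT, of each of the 10 Cyp2c genes with all 6 livers (diamonds), with 1 liver left out (circles) and under the other settings (crosses). All points lie below 0, as they must with fewer livers in the 7 members without overlap. Cyp2c38 (from -0.80 to -0.11) and Cyp2c39 (from -0.46 to -0.05) move most relative to their size, and Cyp2c40 stays between -1.59 and -1.18.

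One array, that of WT replicate 2, differed from the others before centring, with a median of 0.26 over all rows against -0.05 to 0.01 on the other 5 arrays, and a median of 0.51 against -0.12 to 0.02 over 1091 rows of olfactory receptors. Without that array the members' median was -0.57 and 7 of 10 were separate, as were 1877 of all genes on the lower side. Hmgb2 itself was at 0.47, 0.36 and 0.42 in WT and -0.66, -0.33 and -0.43 in HMGB2-KO, with no overlap and a limma adjusted p of 0.645. Nothing in the labels says that the livers of a group came from separate litters or days, so the errors cover no variation beyond these 6 animals. They are also not the spread of 1 gene alone, since limma moves each gene's variance towards a value fitted over all genes.

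Enzymes of the same reactions outside the family lay on both sides of 0. Of 19 arachidonic acid epoxygenases and hydroxylases outside Cyp2c, 10 were higher and 9 lower in HMGB2-KO, with a median log2 fold change of 0.02, or -0.10 with the values as deposited. The 4 with the smallest p were Cyp4a12a, a fatty acid hydroxylase known to be male-biased (0.39, SE 0.12), Cyp2j13 (-0.13, SE 0.11), Cyp4f13 (0.16, SE 0.15) and Cyp2j9 (0.22, SE 0.22). None passed the adjusted test. Separate were 2 of the 19 on the higher side, against 4.32% of all genes, and 1 on the lower side, against 5.35%. Genes that hydrolyse epoxides or handle other eicosanoids were evenly divided, with 14 of 28 higher and a median of 0.00, or -0.12 as deposited. Among them the soluble epoxide hydrolase Ephx2, which removes the epoxides that Cyp2c enzymes make, was at 0.22 (SE 0.15) and did not pass. Alox5ap, needed for leukotriene synthesis, was at 0.69 (SE 0.37), or 0.22 without WT replicate 2. Ptgr1 was at -0.32 (SE 0.17) and the prostaglandin synthase Ptgs2 at -0.20 (SE 0.18, or -0.12 without WT replicate 2). In this list 2 of 28 were separate on the higher side (Alox5ap and Ephx2) and 0 on the lower, against 4.32% and 5.35% of all genes.

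Genes for electron donors and haem supply, on which P450 enzymes depend, were higher in 9 of 13 cases, and their median of 0.11 was -0.01 as deposited. Their 4 smallest p belonged to haem synthesis genes, Cpox (0.25, SE 0.14), Fech (0.25, SE 0.17), Urod (0.24, SE 0.16, or 0.07 without WT replicate 2) and Ppox (0.16, SE 0.11), none past the adjusted test. By liver, the median of this list was between -0.11 and -0.01 in WT and between 0.03 and 0.06 in HMGB2-KO. Separate were 2 of 13 on the higher side (Urod and Ppox) and 0 on the lower, against 4.32% and 5.35% of all genes.

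Regulators of Cyp2c genes lay on both sides of 0 as well. Of 26 transcription factors, receptors and coregulators, 15 were higher and 11 lower, with a median of 0.03, or -0.09 as deposited, and 0 passed the adjusted test. The 4 with the smallest p were the coactivator Ncoa1 (0.32, SE 0.13), Nr1i2, which encodes PXR (-0.35, SE 0.19, or -0.18 without WT replicate 2), Rxrb (0.28, SE 0.15) and the glucocorticoid receptor Nr3c1 (0.21, SE 0.14, or 0.12 without WT replicate 2). Of the 26, 2 were separate on the higher side (Ncoa1 and Rxrb) and 0 on the lower, against 4.32% and 5.35% of all genes. Of 37 other targets of CAR and PXR, 19 were higher and 18 lower, with a median of 0.01, or -0.10 as deposited. The transporter Slco1a4 was at -0.76 (SE 0.24), Cyp2b9 at -0.73 (SE 0.41), Cyp3a41a at -0.33 (SE 0.23) and Ugt2b36 at 0.18 (SE 0.14, or 0.10 without WT replicate 2). On either side 0 of the 37 were separate between the genotypes, against 5.35% of all genes on the lower side and 4.32% on the higher.

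Several Cyp2c genes are known for sex-dependent expression in liver, so genes of that pattern were read beside them, without the members. All 6 mice were male. Of 37 female-biased genes 25 had a lower mean in HMGB2-KO, with a median of -0.11 that ranged from -0.22 (without HMGB2-KO replicate 2) to -0.04 (without WT replicate 1) with 1 liver left out. On the lower side 2 were separate, where 5.35% of all genes were, namely the sulfotransferase Sult3a1 (-0.53, SE 0.18) and A1bg (-0.26, SE 0.13). On the higher side 1 was, against 4.32% of all genes, namely Cd36 (0.37, SE 0.15). Cyp17a1 was at -0.64 (SE 0.32). By liver, the list's median was between -0.08 and 0.11 in WT and between -0.06 and 0.01 in HMGB2-KO, so the genotypes overlapped. Of 34 male-biased genes 24 were higher, and their median of 0.11 was -0.00 as deposited and 0.01 to 0.18 with 1 liver left out. The smallest p belonged to Cyp4a12a, Susd4 (0.38, SE 0.17), Ugt2b38 (0.51, SE 0.28) and Hsd17b2 (0.19, SE 0.12). Of 16 genes that relay or shape growth hormone signalling, 11 were higher, and their median of 0.08 was -0.04 as deposited and 0.01 to 0.15 with 1 liver left out. Here Nfib was at 0.19 (SE 0.12), the growth hormone receptor Ghr at 0.19 (SE 0.14), Esr1 at 0.17 (SE 0.13) and Trim24 at -0.48 (SE 0.41). On the higher side 2 of the 34 male-biased genes and 1 of the 16 growth hormone genes were separate, against 4.32% of all genes. On the lower side 0 of either list were, against 5.35%. None of the genes in these 3 lists passed the adjusted test.

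Position in the liver lobule and cell content were read from marker lists. Some Cyp2c genes are expressed around the central vein. Of 23 pericentral genes 16 were lower, with a median of -0.15. On either side 0 were separate, against 5.35% of all genes on the lower side and 4.32% on the higher. With 1 liver left out that median ranged from -0.13 to -0.06, and was nearest to 0 when WT replicate 1 was dropped. Oat was at -0.28 (SE 0.24), Gstm3 at -0.21 (SE 0.19, or -0.33 without WT replicate 2) and Ahr at -0.19 (SE 0.18), while Lgr5, at 1.76 (SE 1.27), was at 0.04 without WT replicate 2. Of 16 periportal genes 13 were higher, with a median of 0.17 (0.11 to 0.24 with 1 liver left out), among them G6pc (0.59, SE 0.26), Cyp2f2 (0.25, SE 0.13), Ctsc (0.29, SE 0.16) and Pigr (0.25, SE 0.13). Of 22 hepatocyte markers 20 were higher, and their median of 0.07 was -0.05 as deposited and -0.01 to 0.11 with 1 liver left out. Rbp4 was at 0.21 (SE 0.13), Tdo2 at 0.22 (SE 0.19, or 0.34 without WT replicate 2) and Hpd at 0.11 (SE 0.11, or -0.01 as deposited), while Apoa2, at 2.44 (SE 1.79), was at -0.02 without WT replicate 2. On the higher side 1 of the 16 periportal genes and 2 of the 22 hepatocyte markers were separate, against 4.32% of all genes. On the lower side 0 of either list were, against 5.35%. None of these genes passed the adjusted test.

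In 2 lists of other liver cells the medians by liver did not overlap between the genotypes. The median of 13 cholangiocyte markers was between 0.01 and 0.12 in the WT livers and between -0.12 and -0.07 in the HMGB2-KO livers, with 9 of 13 lower and 4 of 13 higher. Separate were 3 of 13 on the lower side, against 5.35% of all genes, and 1 of 13 on the higher side, against 4.32%. The difference in the list's median was -0.22, and with 1 liver left out it lay between -0.22 and -0.10, nearest to 0 when HMGB2-KO replicate 1 was dropped. The 3 lower ones were the collagen receptor Ddr1 (-0.60, SE 0.18), Muc1 (-0.29, SE 0.12) and Mmp7 (-0.34, SE 0.17, or -0.18 without WT replicate 2), and Cldn4 was at -0.29 (SE 0.15). The median of 14 endothelial markers was between 0.55 and 0.61 in WT and between 0.64 and 0.73 in HMGB2-KO, with 10 of 14 higher and 4 separate on that side, against 4.32% of all genes. Pecam1 (0.55, SE 0.14), Oit3 (0.37, SE 0.15) and Mrc1 (0.25, SE 0.12) were among the 4, and Lyve1 was at 0.63 (SE 0.29). The endothelial median difference was 0.07, or -0.05 as deposited and 0.02 without WT replicate 1. None of these markers passed the adjusted test. Their part in the Cyp2c differences was not tested. In 5 other lists the medians by liver overlapped between the genotypes. These were Kupffer cells and macrophages (15 of 19 higher, median difference 0.18, or 0.07 uncentred and 0.08 when HMGB2-KO replicate 3 was dropped), stellate cells and fibroblasts (9 of 13, 0.04, or -0.08 uncentred and -0.06 when HMGB2-KO replicate 1 was dropped), lymphocytes (10 of 14, 0.08, or -0.04 uncentred and -0.03 when WT replicate 3 was dropped), gut and pancreas (14 of 19, 0.13, or 0.01 uncentred and 0.04 when HMGB2-KO replicate 1 was dropped) and erythroid cells (1 of 4, -0.11, or 0.00 without HMGB2-KO replicate 2).

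Of the macrophage markers Cx3cr1 was at -0.39 (SE 0.15), Mpeg1 at 0.39 (SE 0.17), C1qa at 0.25 (SE 0.13) and C1qc at 0.29 (SE 0.15, or 0.17 without WT replicate 2). The smooth muscle actin Acta2 was at 0.48 (SE 0.15), separate on the higher side, with Colec11 at 0.22 (SE 0.14), Lum at -0.32 (SE 0.20) and Dcn at 0.14 (SE 0.14, or 0.09 without WT replicate 2). Of the lymphocyte markers Nkg7 was at 0.25 (SE 0.15, and 0.37 when WT replicate 2 was dropped), Gzma at -0.21 (SE 0.14), Cd8b1 at 0.16 (SE 0.12) and Cd4 at 0.27 (SE 0.22). Of the gut and pancreas markers Lgals4 was at 1.36 (SE 0.55, or 0.72 without WT replicate 2), Amy2b at -0.34 (SE 0.14), Cpb1 at -0.35 (SE 0.17) and Muc2 at 0.22 (SE 0.11). Of the erythroid markers Slc4a1 was at -0.25 (SE 0.14), Klf1 at 0.83 (SE 0.61, or 0.02 without WT replicate 2), Epor at -0.15 (SE 0.14) and Alas2 at -0.06 (SE 0.19, or -0.21 without WT replicate 2). None of these marker genes passed the adjusted test.

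The genes outside the family whose pattern over the 6 livers was most like the mean of Cyp2c40, Cyp2c67, Cyp2c68 and Cyp2c69 were taken from 1499 genes with a range of at least 1 log2 over the livers. By Pearson's r these were Ms4a5 (0.97), Ddr1 (0.94), Esp4 (0.93), the neutrophil protease Ctsg (0.92), Speer2 (0.91), the kinase Prkd1 (0.91), the glycosyltransferase Mgat3 (0.91) and the trace amine receptor Taar8c (0.90). Ms4a5, the closest, was at 0.14, 0.12 and -0.19 in WT and at -0.66, -1.29 and -0.90 in HMGB2-KO. The r values describe 6 arrays that all genes share, picked as the highest of many, and carry no test. The order of the livers in these genes follows from that choice.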

How the data were processed

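Liver RNA of 3 WT and 3 HMGB2-KO mice was labelled with biotin, in duplicate per the labels' protocols, and read on Clariom S arrays. The deposited table gives 1 column of log2 values per liver, which lie around 0 in each row. Base 2 is an assumption here, since no source states the base, row baseline, probe summarization or normalization, and the number of arrays limits the precision. Of 22206 rows, 19572 carry 1 gene symbol in the platform annotation, 0 carry several and 2634 are unnamed here. All 19572 identifiers matched RefSeq. Where a gene had several rows (55 genes), only that of highest mean value was used, leaving 19505 genes. Each array was centred on its median. Genotypes were compared across all genes with limma 3.58.1 in R 4.3.3 (lmFit, eBayes, two-sided, genotype as the only factor), with Benjamini-Hochberg adjustment over 19505 genes. The method was tested on simulated data. No p is given for the 10 members. A gene is called separate where all values of one genotype lie above all of the other. Standard errors and intervals are limma's, after moderation of the variance over all genes.

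The members, gene lists, motifs and rules for named genes were chosen with earlier results of these data known. From each list the 4 genes of smallest unadjusted limma p are named. The pattern genes are the 8 with the highest r. The pattern rule leaves out Cyp2c genes, predicted genes and olfactory and vomeronasal receptors. Promoter windows come from RefSeq, build GRCm38.p6, with 9 of the 10 members matched by symbol and Cyp2c54 not among them. Cyp2c39 has a second start, between the starts of Cyp2c38 and Cyp2c67, which was used neither for the motif counts nor for the gene order. The window of that start holds AGTTCA and TATAAA, which the window used lacks. It does not hold AGGTCA, which the window used has, so these 3 counts depend on the start taken. Windows were aligned in pairs with free end gaps, and identity is over aligned bases. The authors' arrays were not remapped to a genome. Alternatives were the values as deposited, quantile normalization, the mean of several rows, each liver left out, the replicate number as a block, array weights and animals 38 to 41 alone.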

Additional observations from a re-analysis of the deposited data

How the results depend on the processing

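The median log2 fold change of the 10 Cyp2c genes, -0.56 with all livers, was -0.68 with the values as deposited and lay between -0.72 (without WT replicate 3) and -0.55 with 1 liver left out. The mean of several rows and the replicate block cannot change a member's value, since each has 1 row and the design is balanced. Of 100 values under the 10 other alternatives, 99 stayed within 1 within-genotype SD of the reported value. Cyp2c50 moved to -0.36 with the values as deposited. With 3 livers per genotype, leaving out 1 liver cannot move a value by that much. For those settings the count was fixed in advance, and it does not show that a value is stable. The count of separate members stayed between 7 and 10. Over all genes, 1044 were separate on the lower side, 2077 with the values as deposited, 3516 in animals 38 to 41 and 1877 to 2367 with 1 liver left out. With fewer livers, separation is easier to reach by construction. No alternative called a gene at the adjusted threshold of 0.05, and 0 genes passed 0.1 with all livers. Separation does not depend on the block or on array weights, so these gave no count of it. Of 228 list medians under alternatives, 31 moved by more than the spread between livers and 32 changed sign. The 228 include the replicate block, which cannot change a list median, and the mean of several rows, which left each as it was. Of 71 genes named from the lists outside Cyp2c, 41 moved by over 1.5 times when 1 of the livers was left out and 3 changed sign. The text gives the value for the 17 that did so without WT replicate 2.

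Same-numbered livers had correlations of their deviations from the group means of 0.04, 0.13 and 0.29 over all genes. HMGB2-KO replicate 1 correlated more with WT replicate 2 (0.10) than with WT replicate 1. The livers numbered 3, of animals 31 and 32, were most alike. Their correlations with the differently numbered livers of the other genotype lay between -0.21 and -0.03. The numbers were not taken as pairs in the main fit, and the block is an alternative. With the replicate block the members' median is -0.56 by construction, and 0 genes were called, with 858 at an unadjusted p under 0.05 against 717 without it. Both counts are below a share of 0.05 of all genes. The depth of the arrays over background could not be read from relative values.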
